A study of Mus musculus with 4 samples.

Results

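Amino acid transport by NKT cells of the small intestinal lamina propria (SI-LP) was followed here through 9 genes of the 25239 in the deposited table. They were chosen by name. 7 encode amino acid transporters or their subunits (*Slc3a2*, *Slc7a5*, *Slc7a6*, *Slc1a5*, *Slc38a1*, *Slc38a2* and *Slc7a1*), and *Myc* and *Atf4* encode transcription factors of amino acid supply. NKT cells are T cells whose receptor recognizes lipids presented by CD1d. The study asked what transcriptional program they have in the gut. RNA was extracted from NKT cells of C57BL/6Jax mice, the wild type (WT) of the study. According to the study's methods the mice were young adults of both sexes, received a nanobody that blocks ARTC2 before the cells were isolated, and the cells were sorted as live TCRβ+ cells that bound the CD1d tetramer and lacked B220, CD11b, CD11c and CD8. The labels name 4 bulk RNA-seq libraries of this 1 condition, split over an experiment called first (replicates 3 and 4) and another called second (replicates 1 and 2). They do not say whether each came from its own mouse, so p-values measure the spread between these libraries, which may be technical. Lymphoid NKT cells are not analysed here. No treatment or tissue is compared, and the values below are levels in SI-LP NKT cells with their replicate error.

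Slc3a2, the heavy chain of CD98, carries no amino acid itself. It forms a disulfide-linked pair with a light chain of the Slc7 family and brings it to the cell surface, and with Slc7a5 it forms the exchanger that takes up leucine and other large neutral amino acids while it releases glutamine. Slc1a5, Slc38a1 and Slc38a2 are sodium-coupled carriers of glutamine and other neutral amino acids, and Slc7a1 carries arginine and lysine. In T cells, Myc is known to raise transporter expression after activation, and Atf4 is translated preferentially when amino acids run short and then switches on transporter and amino acid synthesis genes.

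The bases before the transcription start are printed for *Atf4*, *Slc38a2* and a start of *Slc3a2* that lies inside its locus, because these were the most abundant members and because *Atf4* and *Slc38a2* had the most similar profiles over the libraries. The RefSeq promoter table on GRCm38.p6 held 7 starts of 5 members (*Slc3a2*, *Slc7a1*, *Slc7a6*, *Slc38a2* and *Atf4*) of the 9. The 250 bases upstream of each start were searched on both strands for CACGTG (the E-box of Myc and Max), CCAAT (the CCAAT box) and TGATGNAA (the amino acid response element that Atf4 dimers bind), with no overlap between the motifs found. The windows are chr15:80254934-80255183 on the plus strand (*Atf4*), chr15:96699729-96699978 on the minus strand (*Slc38a2*) and chr19:8713898-8714147 on the minus strand (*Slc3a2*, whose deposited locus begins further upstream, at 8723369), and capitals mark the motifs found.
Atf4: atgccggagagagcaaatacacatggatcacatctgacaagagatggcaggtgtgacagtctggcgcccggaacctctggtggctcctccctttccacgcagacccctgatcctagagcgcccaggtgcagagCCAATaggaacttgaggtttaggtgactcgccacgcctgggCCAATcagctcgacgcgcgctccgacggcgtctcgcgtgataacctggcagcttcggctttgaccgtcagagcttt
Slc38a2: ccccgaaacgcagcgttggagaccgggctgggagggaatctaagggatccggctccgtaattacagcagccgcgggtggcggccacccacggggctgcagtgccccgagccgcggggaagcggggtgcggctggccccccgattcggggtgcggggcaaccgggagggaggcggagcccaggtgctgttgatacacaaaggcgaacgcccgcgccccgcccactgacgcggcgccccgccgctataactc
Slc3a2: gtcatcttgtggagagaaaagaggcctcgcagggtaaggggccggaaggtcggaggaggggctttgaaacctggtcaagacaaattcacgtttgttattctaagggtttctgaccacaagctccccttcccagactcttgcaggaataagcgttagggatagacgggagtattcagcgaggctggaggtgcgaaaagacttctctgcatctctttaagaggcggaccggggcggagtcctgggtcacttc

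CCAAT was present in the *Atf4* window, 117 and 76 bases before the start, and in no window of the other 4 members. Of 32851 promoter windows in the table, 33.85% held CCAAT on either strand. CACGTG, present in 6.02% of all windows, and TGATGNAA, present in 3.45%, were in none of the 7 windows of members. A match is a run of letters in this window and not a measured site, and a missing match says only that these letters are not in it. The GC content was 59.2% for *Atf4*, 72.0% for *Slc38a2* and 53.6% for *Slc3a2*, against a median of 52.4% over all windows.

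The libraries held 3882803 to 8732858 counts on genes, so 3 counts, taken as the smallest amount a library can show, lay between 0.344 and 0.773 CPM. The ribosomal RNA precursor *Rn45s* took 7.36% to 28.1% of the counts. Levels within a gene are given as CPM (counts adjusted for library size and edgeR's TMM factors). Levels between genes are given as TPM (counts per exon length as a share of all genes, *Rn45s* included, without TMM factors). Some genes and sums are given below in TPM only, and their differences between libraries are then without TMM scaling. All 7 markers of T cells were detected in every library, with *Cd3e* at the 99.6th percentile of expressed genes, and so were 5 markers of NKT1 cells, with *Nkg7* at the 99.0th, and *Zbtb16*, which encodes the NKT cell factor PLZF and is higher in other NKT subsets, while *Cd8a* and *Cd8b1* had at most 12 counts in any library. Markers of intestinal epithelium (21 genes) set the libraries apart within each experiment. Their share of all counts was 0.113% in replicate 1 and 0.0204% in replicate 3, but 1.20% in replicate 2 and 3.06% in replicate 4. That of T cell markers was 0.303% and 0.375% for replicates 1 and 3 against 0.123% and 0.178% for replicates 2 and 4. Plasma cell markers (6 genes) made up 0.627% and 0.783% in the second experiment (replicates 1 and 2) but 0.000547% and 0.0250% in the first (replicates 3 and 4). In such bulk libraries, fewer cells of a type and less RNA per cell cannot be told apart.

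All 9 members were measured with at least 10 counts in every library, from 49 counts for *Slc7a6* in replicate 4 to 6855 for *Slc38a2* in replicate 1. They fell into an abundant group (*Atf4*, *Slc38a2* and *Slc3a2*, with mean TPM of 418 to 575), an intermediate *Slc38a1*, and a low group (*Myc*, *Slc1a5*, *Slc7a1*, *Slc7a5* and *Slc7a6*, with mean TPM of 13.4 to 54.9). Among the 11689 genes tested, which reached 10 counts in 2 or more libraries, 3 members lay in the top 10% and 8 above the median by mean percentile of TPM.

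*Slc3a2* (GRCm38 chr19:8706882-8723369, minus strand) encodes the heavy chain of CD98. Its CPM was 491 in replicate 1, 276 in replicate 2, 713 in replicate 3 and 350.0 in replicate 4, a mean of 457 ± 192 (SD, n = 4). Replicates 1 and 3 were the high ones and replicates 2 and 4 the low ones, so within each experiment the library with fewer epithelial marker counts was higher, and the experiments overlapped. Per length its level was 418 ± 153 TPM (SD, n = 4), at a mean percentile of 97.0. Its light chain partner *Slc7a5* (chr8:121881146-121907686, minus strand), the leucine exchanger, was far lower. *Slc7a5* had 14.5, 30.0, 52.9 and 32.1 CPM in replicates 1 to 4, a mean of 32.4 ± 15.8 CPM and of 24.6 ± 10.2 TPM (SD, n = 4). Replicate 1 was the low library and replicate 3 the high one, and both libraries of the first experiment lay above both of the second, although replicates 2 and 4 nearly touched. *Slc7a6* (chr8:106168854-106198714, plus strand), a light chain that exchanges cationic for neutral amino acids, was the lowest member, with 9.70, 46.7, 17.9 and 12.3 CPM in replicates 1 to 4. Replicate 2 alone was high and set the mean of 21.6 ± 17.1 CPM, which was 13.3 CPM without it.

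The glutamine carriers were led by *Slc38a2* (chr15:96687392-96699728, minus strand), a transporter known to be induced by amino acid shortage. Its CPM was 949.8 in replicate 1, 632 in replicate 2, 652 in replicate 3 and 729 in replicate 4, a mean of 741 ± 146 (SD, n = 4), the highest CPM of the 9 members. Replicate 1 was high and the other three lay close together. Its neighbour on the chromosome, *Slc38a1* (chr15:96571418-96642913, minus strand), which also imports glutamine, had 404, 212, 346 and 205 CPM in replicates 1 to 4. Like *Slc3a2* it was higher in replicates 1 and 3 than in replicates 2 and 4. The ratio of *Slc38a2* to *Slc38a1* in TPM was 4.23, 5.37, 3.39 and 6.41 in replicates 1 to 4, so *Slc38a2* was the more abundant of the pair in 4 of 4 libraries. *Slc1a5* (chr7:16781346-16798274, plus strand), the exchanger of glutamine for other small neutral amino acids, had 24.7, 66.7, 46.4 and 40.1 CPM in replicates 1 to 4. Its level per length was 44.7 ± 20.7 TPM (SD, n = 4), with replicate 1 low and replicate 2 high.

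*Slc7a1* (chr5:148327410-148399904, minus strand), the carrier of arginine and lysine, works without a heavy chain. Its CPM was 81.1, 115, 60.9 and 129 in replicates 1 to 4, a mean of 96.4 ± 30.9 (SD, n = 4). It was the member that was higher in replicate 2 than in 1 and in replicate 4 than in 3. Its long transcript gave it a level of 36.8 ± 12.4 TPM (SD, n = 4), below *Slc1a5* and *Myc*, which it exceeded in CPM.

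*Myc* (chr15:61985341-61990361, plus strand) had 34.5, 24.0, 39.1 and 102 CPM in replicates 1 to 4. Replicate 4 stood alone, and the other three lay within 24.0 to 39.1 CPM, so that the mean of 49.9 ± 35.4 CPM (SD, n = 4) was 32.5 CPM without it. *Atf4* (chr15:80255184-80257545, plus strand) had 423, 283, 369 and 374 CPM in replicates 1 to 4, a mean of 362 ± 58.2 (SD, n = 4). The libraries lay close together, with replicate 2 the lowest. Per length *Atf4* was the most abundant member, at 575 ± 108 TPM (SD, n = 4) and a mean percentile of 98.0. *Atf4* exceeded *Myc* 17.0, 16.3, 13.1 and 5.08 times in TPM in replicates 1 to 4, and the smallest ratio was that of the library with the high *Myc*.

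**Figure D1:**
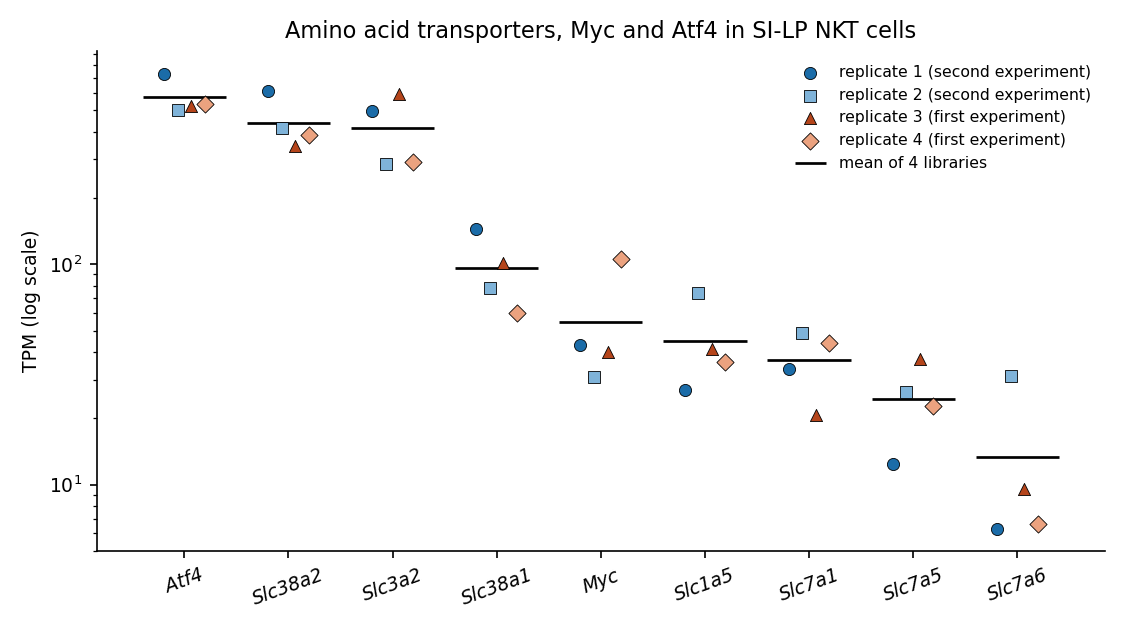
Level of each of the 9 members in TPM (vertical axis, log scale) in 4 libraries of SI-LP NKT cells, with a symbol for each library and a line for the mean of 4. *Atf4*, *Slc38a2* and *Slc3a2* sit above 280 TPM in every library, and *Myc*, *Slc1a5*, *Slc7a1*, *Slc7a5* and *Slc7a6* overlap each other below them.

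The order of the members was compared within libraries, by the log2 difference in TPM of each pair of neighbours in the order of the means. *Atf4* exceeded *Slc38a2* by 0.40 ± 0.17 (log2 TPM, SD, n = 4), and *Slc3a2* exceeded *Slc38a1* by 2.12 ± 0.35 (log2 TPM, SD, n = 4), both in 4 of 4 libraries. With 4 libraries the smallest two-sided p of an exact sign-flip permutation test is 0.125, which both pairs reached, and the design cannot pass a threshold of 0.05. The adjusted p over the 8 pairs, from the same exact permutation test, was 0.4 for both. The other 6 pairs kept their order in 2 or 3 of 4 libraries. *Slc38a2* and *Slc3a2* differed by 0.11 ± 0.61 log2 TPM, and *Slc3a2* led all members in replicate 3. *Slc7a5* and *Slc7a6* held the lowest positions of the mean order, although in replicate 2 *Slc7a6* stood above *Slc7a5* and *Myc*. The pairs of *Atf4* and *Slc38a2* and of *Slc3a2* and *Slc38a1* thus keep their order whichever library is left out. Of these 8 pairs, 4 had one order in all remaining libraries without replicate 3, 2 without replicate 1, and 3 without replicate 2 or 4. Without replicate 1, 2 or 4 the mean of *Slc3a2* passed that of *Slc38a2*.

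The members spread less between libraries than the median tested gene. Highest over lowest library (CPM) was 1.49 for *Atf4*, 1.50 for *Slc38a2*, 1.98 for *Slc38a1*, 2.11 for *Slc7a1*, 2.59 for *Slc3a2*, 2.71 for *Slc1a5*, 3.64 for *Slc7a5*, 4.25 for *Myc* and 4.82 for *Slc7a6*. The median of the members was 2.59, against 4.96 over the 11689 tested genes, and 9 of 9 members lay below that median. Many tested genes have few counts in some libraries. Over the 8089 genes that, like the members, reached 10 counts in each of the 4 libraries, the median was 3.26 and 6 of 9 members lay below it. *Atf4* and *Slc38a2* were among the steadiest genes, with a ratio smaller than that of all but 3.29% and 3.46% of tested genes. Among the genes with 10 counts in each library these shares were 4.72% and 4.97%. Both are also abundant, at mean percentiles of 98.0 and 97.4 by TPM, and steadiness was not compared at equal level. The libraries with little epithelial signal, replicates 1 and 3, differed by a median factor of 1.45 over the members and 1.78 over all tested genes, and replicates 2 and 4 by 1.27 and 1.90.

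**Figure D2:**
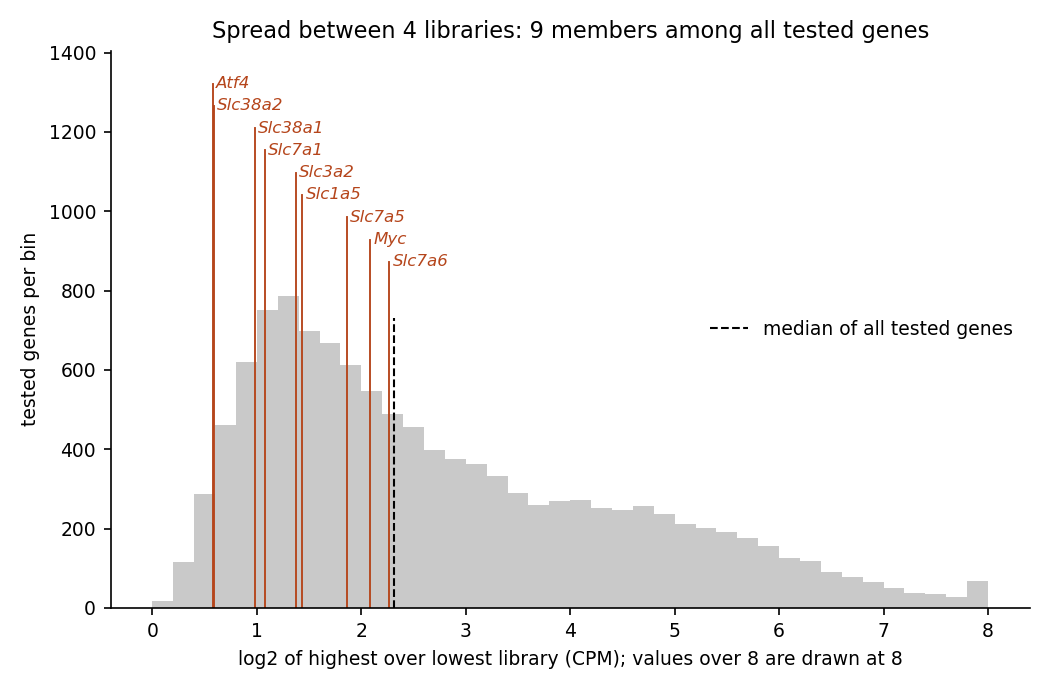
Log2 of the highest over the lowest of 4 libraries (CPM, horizontal axis) for 11689 tested genes (grey bars, number of genes per bin) and for the 9 members (red lines, with heights chosen to separate the names). The dashed line is the median of all tested genes at a ratio of 4.96, and all 9 members lie to its left, with *Atf4* and *Slc38a2* at ratios of 1.49 and 1.50.

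The only labelled difference between the libraries is the experiment, and a test of it measures replicate error. No member differed between the second and the first experiment in edgeR's quasi-likelihood test. Of all 11689 genes tested, 0 (0%) passed an adjusted p of 0.05, and 248 (2.12%) had an unadjusted p under 0.05, of which 0 were members. DESeq2 called 41 genes, of which 0 were members, and the lowest adjusted p of any member over all alternatives, edgeR and DESeq2, was 0.929. With all 4 libraries the largest difference was that of *Myc*, at -1.27 ± 0.82 (log2, second minus first, SE; edgeR, adjusted p = 0.9997). Without replicate 4, which holds its high value, it was -0.41. *Slc7a5* was at -0.93 ± 0.90 and *Slc7a6* at 0.90 ± 1.17 (log2, SE). *Slc7a6* turned to -0.64 without replicate 2 and was 1.66 without replicate 1, where it exceeded *Myc*, and *Slc7a5* had the largest difference without replicate 2 (-1.55) or replicate 4 (-1.23). With library size alone *Slc7a6* led at 1.27. The other 6 members lay between -0.47 for *Slc3a2* and 0.20 for *Slc38a2*. The median absolute difference was 0.20 log2 units over the members and 0.67 over all tested genes. In the fit of the 8089 genes with at least 10 counts in each library, it was 0.15 over the members and 0.54 over all. With any 1 replicate left out it was 0.41 to 0.55 over the members and 0.80 to 0.89 over all genes. With library size alone it was 0.41 and 0.74. The libraries of the experiments did not overlap in CPM for 2 of 9 members (*Slc7a5* and *Myc*), against 29.1% of all tested genes. With library size alone in place of TMM scaling, both overlapped and *Slc38a2* did not, against 31.6% of all tested genes. That scaling moved the median difference of all genes from 0.08 to 0.40 log2 units between replicates 4 and 3, and from 0.13 to 0.39 between replicates 2 and 1.

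**Figure D3:**
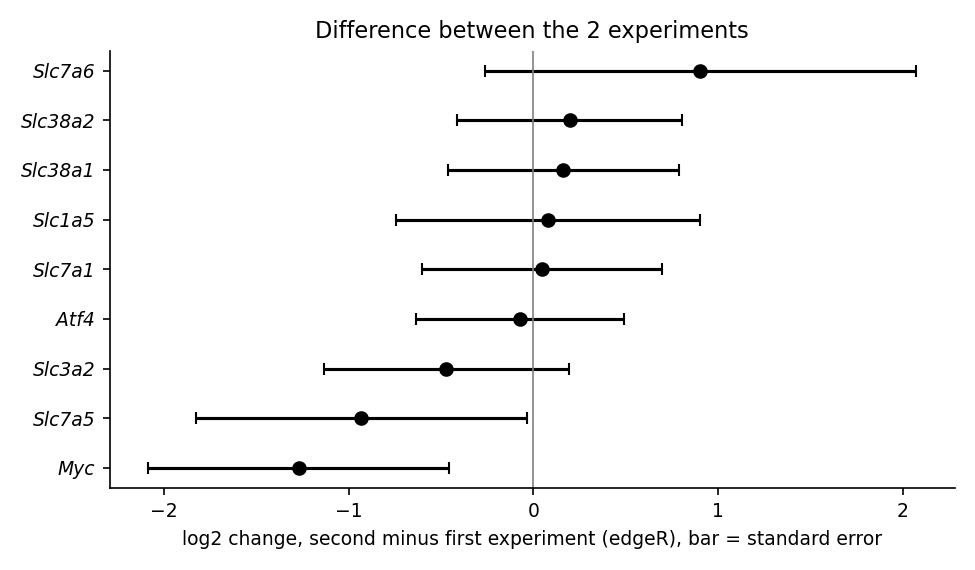
Difference of each member between the second experiment (replicates 1 and 2) and the first (replicates 3 and 4), as edgeR's log2 change (horizontal axis, points) with its standard error (bars). The points run from -1.27 for *Myc* to 0.90 for *Slc7a6*, and none passed the test.

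Within both experiments the library with more epithelial signal had less *Slc3a2* and *Slc38a1*. *Slc3a2* was lower by 1.02 log2 units in replicate 4 than in 3 and by 0.83 in replicate 2 than in 1, and *Slc38a1* was lower by 0.76 and by 0.93. Such a fall in both pairs, by any amount, was seen in 2 of 9 members and in 29.9% of tested genes. *Slc7a1* was the 1 member higher in both, by 1.07 and 0.50 log2 units, as were 35.2% of tested genes, and with library size alone *Slc1a5* was as well. The other 6 members moved in opposite directions in the pairs. *Myc* was higher by 1.38 log2 units in replicate 4 than in 3 and lower by 0.52 in replicate 2 than in 1. *Slc7a6*, *Slc1a5* and *Slc7a5* were lower in replicate 4 than in 3, by 0.53, 0.21 and 0.71, and higher in replicate 2 than in 1, by 2.23, 1.43 and 1.03 log2 units. None of the 9 members was higher by over 1 log2 unit in both pairs, as 19.0% of tested genes were, or lower by over 1 in both, as 8.08% were. Among genes that, like the members, had at least 10 counts in each library, these shares were 8.91% and 8.43%. With 1 library against 1, these differences have no test.

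Markers of other cells also differed within these pairs, those of epithelium by a larger median than any member did. The epithelial markers had median differences of 5.46 log2 units between replicates 4 and 3 and 3.43 between replicates 2 and 1. Of the 21, 17 were higher by over 1 log2 unit in both, against 19.0% of tested genes. Of the 18 with at least 10 counts in each library, 14 were, against 8.91% of all such genes. The 7 T cell markers had medians of -1.47 and -1.18 log2 units, lower in both pairs for each marker. *Slc3a2* and *Slc38a1* were the members nearest to the T cell markers in the plot of the pairs. When the pairs were instead centred on the T cell markers (their median difference), every gene was raised by the same amount within a pair. Each of the 9 members was then higher in replicates 4 and 2. The shift itself favours this count, and the share of all tested genes was not computed for it. *Slc1a5* was higher by 1.26 and 2.61 and *Slc7a1* by 2.55 and 1.68 log2 units. These 2 passed 1 log2 unit in both pairs, as 44.1% of tested genes did. The part that the makeup of the sorted cells has in the members' differences was not tested.

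**Figure D4:**
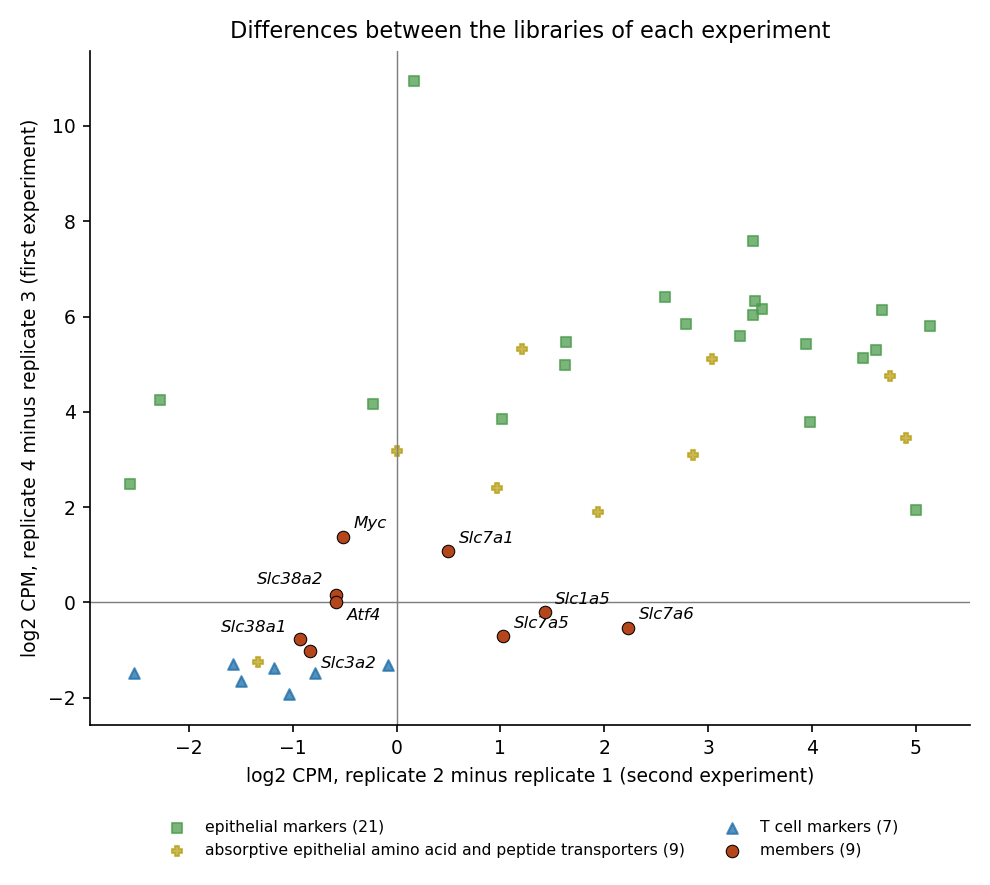
Log2 difference in CPM between the 2 libraries of the second experiment (horizontal axis, replicate 2 minus 1) and of the first (vertical axis, replicate 4 minus 3) for the 9 members (red, named), epithelial markers (green), absorptive transporters of the epithelium (yellow) and T cell markers (blue). The members lie between -1.02 and 2.23, the T cell markers below 0 on both axes, and 17 of 21 epithelial markers above 1 on both, as 19.0% of tested genes do.

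*Slc3a2* transcripts outnumbered those of its light chains in every library. The heavy chain was 40.1, 10.9, 16.0 and 12.9 times as abundant as *Slc7a5* in TPM in replicates 1 to 4. All 6 light chains that pair with it (*Slc7a5*, *Slc7a6*, *Slc7a7*, *Slc7a8*, *Slc7a10* and *Slc7a11*, 5 of them tested) summed to 0.0942, 0.407, 0.0922 and 0.389 of the *Slc3a2* TPM in replicates 1 to 4, a mean of 0.246 ± 0.176 (SD, n = 4). Replicates 2 and 4 had the high ratios and replicates 1 and 3, which alone gave 0.0932, the low ones. *Slc7a5* alone was 0.0641 ± 0.0287 of *Slc3a2* (SD, n = 4).

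The light chains differed in which library carried them. *Slc7a5* took 26.5%, 22.5%, 67.8% and 19.8% of light chain TPM in replicates 1 to 4, so it led in replicate 3, the library with the least epithelial signal. *Slc7a7*, the light chain that exports cationic amino acids on the basolateral side of the gut epithelium, took 48.8%, 39.7%, 13.2% and 34.8%. *Slc7a8*, another exchanger of neutral amino acids of that membrane, took 11.0%, 10.7%, 1.50% and 35.0%. *Slc7a7* was higher in replicates 2 and 4 (37.7 and 40.1 CPM) than in replicates 1 and 3 (19.1 and 7.37 CPM), and so was *Slc7a8*, with 16.4 and 65.0 against 6.93 and 1.34 CPM. *Slc7a10* had at most 3 counts in each library.

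Among all plasma membrane and organelle carriers of amino acids and their subunits listed (54 genes), the 7 members held most of the transcripts. They took 81.4%, 64.7%, 82.2% and 65.2% of the summed TPM in replicates 1 to 4, a mean of 73.4% ± 9.77 (SD, n = 4), and 81.8% in replicates 1 and 3 alone. *Slc38a2* took 29.9% ± 5.36, *Slc3a2* 28.7% ± 10.3 and *Slc38a1* 6.49% ± 1.93 (SD, n = 4), and *Slc7a5* only 1.73% ± 0.775. The members' share includes *Slc3a2*, which carries no amino acid itself and took 30.4%, 19.3%, 42.5% and 22.5% in replicates 1 to 4. The share without it was not computed. Of the other 47 transporters, 23 were tested and 18 had at most 3 counts in each library. The sum over the 54 genes was 1640, 1489, 1395 and 1304 TPM in replicates 1 to 4.

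The 4 most abundant of the other transporters moved differently. *Slc6a6*, the taurine transporter, had 139, 269, 167 and 160.1 CPM in replicates 1 to 4, with replicate 2 high. *Slc16a10*, a carrier of aromatic amino acids, had 217, 86.2, 235 and 98.1 CPM, higher in replicates 1 and 3 as *Slc3a2* was. *Slc43a2*, a carrier of large neutral amino acids, had 49.7, 97.2, 76.3 and 137 CPM, and was higher in replicates 2 and 4 within each experiment, as *Slc7a7* was. Many of the 23 tested passed the filter through replicates 2 and 4 alone, so their direction is given only for the 7 with at least 10 counts in each library. Of these, 1 was higher by over 1 log2 unit in replicates 4 and 2 and 1 lower, against 8.91% and 8.43% of all such genes. Their median ratio of highest to lowest library was 2.72, against 2.59 for the members and 3.26 over all such genes. None of the 23 passed an adjusted p of 0.05 between the experiments in edgeR, and 0 had an unadjusted p under 0.05, against 0% and 2.12% of all tested genes.

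Carriers that gut epithelium uses to absorb amino acids and peptides (10 genes, 9 tested) include *Slc16a10* and *Slc7a7*. Only 3 of them had at least 10 counts in each library, so no count by direction is given. *Slc1a1*, an importer of glutamate and aspartate, had 1.25, 41.6, 1.34 and 43.9 CPM in replicates 1 to 4, and *Slc36a1*, a proton-coupled carrier of small amino acids, had 14.1, 55.2, 8.04 and 30.6. *Slc36a1*, with at least 10 counts in each library, was low in replicates 1 and 3 and high in replicates 2 and 4, as the epithelial markers were. *Slc1a1* had 9, 434, 6 and 175 counts and passed the filter only through replicates 2 and 4, so its direction is not read. Without those of the 10 absorptive carriers that are among the 54 transporters, the 7 members took 83.5% of the transporter TPM. Those left out include *Slc16a10*, which took a mean of 4.49% of it and was higher in replicates 1 and 3, unlike the epithelial markers. The rise is thus not a measure of epithelial signal alone. The part of the absorptive carriers in the members' share was not tested beyond this.

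**Figure D5:**
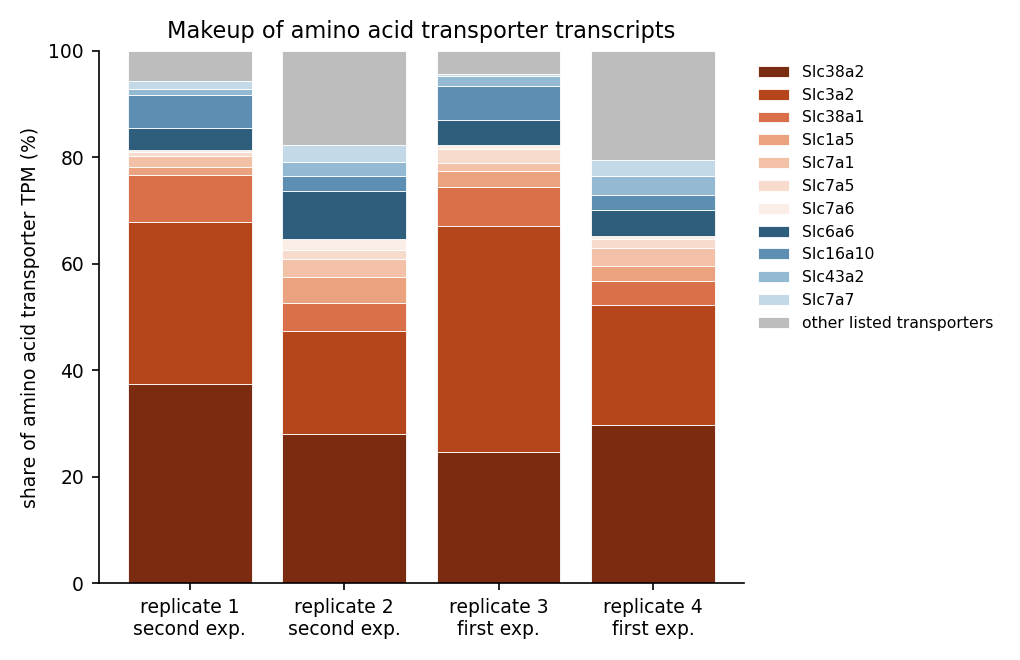
Share of the summed TPM of 54 amino acid transporter genes (vertical axis, %) in each of 4 libraries, by gene, with the 7 members in red shades, the 4 most abundant others in blue shades and all remaining ones in grey. The members fill 81.4% and 82.2% of the bars of replicates 1 and 3, and 64.7% and 65.2% of those of replicates 2 and 4.

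Genes of the amino acid response, which Atf4 is known to induce, spread between libraries about as other genes did. Of the 30 listed, 26 were tested and 17 had at least 10 counts in each library, with a median ratio of highest to lowest library of 3.41 over these 17, against 3.26 over all such genes. Of the 17, 3 were higher by over 1 log2 unit in replicates 4 and 2 and 0 lower, against 8.91% and 8.43% of all such genes. The leading genes by mean TPM were *Eprs* and *Nars*, which charge tRNAs with amino acids, and *Atf3* and *Ddit3*, transcription factors of the stress response. *Atf3* had 24.4, 211, 8.26 and 99.6 CPM in replicates 1 to 4, a range of 25.5 times over libraries between which *Atf4* ranged 1.49 times. *Eprs* had 544, 344, 629 and 214 CPM, and *Nars* 176, 288, 129 and 161 CPM. *Ddit3* had 30.8, 29.2, 49.3 and 21.8 CPM, with replicate 3 the highest. *Atf3* was thus high in replicates 2 and 4, *Eprs* in replicates 1 and 3, and *Nars* in replicate 2. *Asns*, the asparagine synthetase, had 100, 526, 0 and 123 counts, and *Chac1*, an enzyme that degrades glutathione, had 0, 101, 0 and 42 counts. These 2 were picked after their values were seen. Replicate 3, where both had 0 counts, allows up to 3 counts or 0.547 CPM before library scaling. No gene of the list passed an adjusted p of 0.05 between the experiments in edgeR, and 0 had an unadjusted p under 0.05. Of all tested genes, 0% and 2.12% did. The experiments did not overlap for 10 of 26, against 29.1% of all tested genes.

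The kinases and phosphatase subunits around eIF2α, the factor whose phosphorylation favours *Atf4* translation, were all expressed (7 of 7 tested, median percentile 78.0). *Ppp1r15a*, the inducible phosphatase subunit that ends the response, led with 245, 102, 452 and 392 CPM in replicates 1 to 4. Replicate 2 was low and the first experiment lay above the second. *Eif2s1*, which encodes eIF2α, went the other way, with 94.4, 139, 62.9 and 53.7 CPM in replicates 1 to 4. *Ppp1r15b*, the constitutive subunit, had 86.7, 189.7, 133 and 174 CPM. *Eif2ak1*, the kinase that senses haem shortage, had 68.3, 68.8, 39.3 and 66.7 CPM, with replicate 3 alone low. None of the 7 moved by over 1 log2 unit in the same direction in both pairs, as 8.91% (higher) and 8.43% (lower) of genes with at least 10 counts in each library did. The experiments did not overlap for 5 of 7, against 29.1% of tested genes. In edgeR's test 0 passed, adjusted or not, against 0% and 2.12% of tested genes. The median ratio of highest to lowest library was 3.27, against 3.26 over all genes with at least 10 counts in each library.

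*Max*, the obligate partner of Myc, was more abundant than *Myc* in every library. It had 877, 618, 443 and 315 TPM in replicates 1 to 4, against 43.2, 30.8, 40.0 and 105 TPM for *Myc*. *Max* was lowest in replicate 4, where *Myc* was highest. *Mxd1*, which competes with Myc for Max, had 506, 199, 534 and 201 TPM. It was higher in replicates 1 and 3 than in replicates 2 and 4, as *Slc3a2* was. *Mlx* and *Mlxip*, which form a related dimer that responds to glucose, had means of 58.7 ± 14.6 and 57.2 ± 25.3 TPM (SD, n = 4). Of the 13 partners and relatives of Myc, 11 were tested, with a median percentile of 65.1. Among the 9 with at least 10 counts in each library, the median ratio of highest to lowest library was 2.66, against 3.26 over all such genes. Of these 9, 0 were higher and 1 lower by over 1 log2 unit in both pairs, against 8.91% and 8.43% of all such genes. None of the 11 (0) passed edgeR's test, adjusted or not, against 0% and 2.12% of all tested genes.

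Genes that Myc is known to activate were abundant, with all 26 listed genes tested and a median percentile of 77.1. *Npm1*, a nucleolar chaperone of ribosome assembly, had 1537, 1401, 964 and 848 TPM in replicates 1 to 4. *Ldha*, the lactate dehydrogenase subunit, had 717, 1282, 491 and 634 TPM. *Ccnd2*, a cyclin of G1 phase, had 649, 267, 628 and 300.3 TPM, and *Odc1*, the first enzyme of polyamine synthesis, had 466, 400.4, 346 and 151 TPM. Their values are not ordered as those of *Myc*, and *Odc1* and *Npm1* were lowest in replicate 4, where *Myc* was highest. Other genes of the list were highest in replicate 4, as *Myc* was. Among them were *Fbl* (34.5, 116, 163 and 312 TPM in replicates 1 to 4) and *Bop1* (58.9, 16.7, 18.7 and 80.7 TPM). The list as a whole was not compared with *Myc*. *Npm1* and *Ldha* have near-identical copies in the genome between which reads could be split, so their counts are uncertain. Of the 26, 23 had at least 10 counts in each library, and of these 2 were higher and 1 lower by over 1 log2 unit in both pairs, near or below the 8.91% and 8.43% of all such genes. The experiments did not overlap for 9 of 26, against 29.1% of tested genes. In edgeR 0 passed an adjusted p of 0.05 and 2 had an unadjusted p under 0.05, against 2.12% of tested genes. Proliferation genes (11), which mark dividing cells, had median differences of 2.58 and 2.61 log2 units between replicates 4 and 3 and replicates 2 and 1. Of the 8 with at least 10 counts in each library, 5 were higher by over 1 log2 unit in both pairs, against 8.91% of all such genes. The part of proliferation genes in the values of *Myc* targets was not tested.

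The machinery by which mTORC1 senses amino acids on the lysosome was expressed at middling levels. Of 34 genes listed 32 were tested, with a median percentile of 48.3. *Lamtor2*, a subunit of the Ragulator anchor, led with 148, 222, 224 and 138 TPM in replicates 1 to 4. *Lamtor5*, another subunit, had 104, 230, 29.8 and 105 TPM, with replicate 2 high and replicate 3 low. *Sesn3*, of the sestrins that restrain mTORC1, had 166, 22.4, 149 and 86.3 TPM and was higher in replicates 1 and 3. *Sec13*, a subunit of the GATOR complex and of COPII coats, had 95.6, 143, 47.7 and 128 TPM. Among the 27 with at least 10 counts in each library, 2 were higher and 2 lower by over 1 log2 unit in both pairs, against 8.91% and 8.43% of all such genes. Their median ratio of highest to lowest library was 2.77, against 3.26 over all such genes. None of the 32 tested passed edgeR's test, adjusted or not, against 0% and 2.12% of all tested genes.

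Likeness to a member was measured over 4 libraries as the root mean square distance between log2 CPM values centred on their means, among 6486 tested genes with a mean CPM of at least 20. With 4 points, of 2 experiments and of unlike epithelial signal, many genes lie near any profile, and these distances are a description. The nearest genes to *Slc3a2* were *Ffar2* (distance 0.053), *Mknk2* (0.056) and *Ccni* (0.063), and *Ccni* for instance had 262, 139, 340.4 and 168 CPM in replicates 1 to 4. *Slc7a5* was nearest to *Sipa1l1* (0.057), *Pcbp1* (0.065) and *Cltb* (0.12). *Atf4* was nearest to *Zfp516* (0.049), *Ube2z* (0.051) and *Ermp1* (0.058). *Myc* had less close neighbours, *Cep170b* (0.10), *Ptpra* (0.12) and *Rrm1* (0.13), each of which was highest in replicate 4. Among the members, *Slc38a2* and *Atf4* were the nearest pair at 0.14, followed by *Slc3a2* and *Slc38a1* at 0.31, while *Myc* and *Slc7a6* were the farthest apart at 1.44.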

How the data were processed

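Bulk RNA-seq of SI-LP NKT cells was analysed from 1 table in which the authors deposited raw counts per gene for 6 library columns. 4 columns match a sample label, and the remaining 2 were left out throughout. Per the labels, the libraries were made with a kit for very low RNA input. The header names featureCounts 1.6.4 with an mm10 annotation, and the aligner and genome differ between the sources. The study's methods name HISAT2 and GRCm39, whereas the submitters' processing notes name Bowtie2, RSEM and GRCm38.p6. The deposited positions of 9 of 9 members overlap those of RefSeq on GRCm38.p6, and all coordinates follow that build. Counting without strand leaves genes that overlap on opposite strands uncertain, and 0 members share exon bases with another gene. Intervals of counting error are not given, since reads amplified by PCR are not independent molecules, and the floor of 3 counts covers counting error only.

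CPM was computed with TMM factors and TPM with the gene length the authors deposited beside the counts. The experiments were compared with the quasi-likelihood test of edgeR on the 11689 genes that reached 10 counts in 2 or more libraries, with p-values adjusted by the Benjamini-Hochberg method over all of them. Log2 differences between single libraries used a prior count of 2. The order of members was tested by an exact two-sided permutation test. Tested on simulated counts for the comparison of experiments with a dispersion of 0.05, edgeR recovered 190 of 197 genes changed by 2 log2 units (4 false calls) and 19 of 196 changed by 1 (2 false calls). The spread of these libraries was far larger, with a biological coefficient of variation of 0.976. A dispersion equals such a coefficient squared, so these figures are not on the same scale. The recoveries therefore do not measure what the test could detect in these libraries, and no simulation at their own spread was run. That no member was called is thus not evidence of equal levels in the experiments.

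The members and gene lists were chosen with earlier results of these data known. The genes named are the 9 members, the 4 genes of highest mean TPM of each list among those tested, and the 3 nearest genes to *Slc3a2*, *Slc7a5*, *Myc* and *Atf4*. *Asns*, *Chac1*, *Fbl* and *Bop1* are exceptions, as are *Slc7a8* (in the list of light chains), *Slc7a10* and markers. As alternatives, the table was refitted without *Rn45s*, with DESeq2, with 2 other scalings (library size alone, or median-of-ratios size factors) and with other low-count filters. Further alternatives were a prior count of 0.5, scaling to T cell markers, CPM in place of TPM, *Slc7a5* as the sole light chain, the transporters without those of absorptive epithelium, and leaving out each replicate. Leaving out replicates 2 and 4 together, the overlap of the experiments under other scalings, fixed pairs in the order, and the lists' counts over genes with 10 counts in each library were added after the data were seen. Python 3.11.15 (with scipy 1.17.1, pandas 2.3.3 and numpy 2.4.6) and R 4.3.3 were used, the latter with DESeq2 1.42.0, limma 3.58.1 and edgeR 4.0.16.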

Additional observations from a re-analysis of the deposited data

Results flagged for a closer look

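Among 38 results of 4 libraries examined for a library far from the others, 1 stood out. *Eif2ak1* had 39.3 CPM in replicate 3 and 66.7 to 68.8 CPM in the other three, and the gap below them was 0.932 of the whole range. Chance alone would single out about 1 in 20 such results, here 1.9, so 1 is no more than chance gives. None of the 9 members stood out in this way, including *Myc* and *Slc7a6*, whose highest libraries are described above.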

How the results depend on the processing

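No member differed between the experiments under any of the 10 alternatives run. The number of all genes that did was 0 with edgeR, 41 with DESeq2 (519 at an unadjusted p under 0.05), 60 without a filter on low counts, and 0 to 7 with 1 replicate left out, of which 7 came without replicate 3 and 6 without replicate 4. With 1 library left in an experiment, that library is assumed to vary like the others. The number of neighbouring members in the same order in all libraries (2) ran from 1 to 4 with 1 replicate left out and neighbours taken anew from the remaining means, and from 2 to 4 with the 8 pairs kept, as added after seeing the data. Scaled to the T cell markers, 2 members were higher by over 1 log2 unit within both experiments (0 otherwise). The median spread of the members (2.59) was 2.76 with library size alone, 1.77 to 1.98 with 1 replicate left out, and 1.45 without replicates 2 and 4, an alternative chosen after seeing the data. The ratio of light to heavy chain TPM (0.246) was 0.0641 with *Slc7a5* alone, and the members' share of transporter TPM (73.4%) was 83.5% without the absorptive epithelial carriers. Mean levels moved by less than their SD in 63 of 63 recalculations, which a mean of 4 with 1 left out can hardly exceed, and mean percentiles did so in 6 of 18. By CPM the percentile of *Slc7a1* was 82.4 and of *Slc38a1* 95.2, in place of 64.6 and 84.4 by TPM. No paired analysis was possible because there is just 1 group and no replicate number occurs in both experiments. Depth limits the low members most, with *Slc7a6* at 49 counts in its shallowest library, and 4 libraries of 1 condition limit every test.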
